A study of Mus musculus with 10 samples.

Results

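Accessible sites at divergent coding gene promoters were examined in immortalized mouse embryo fibroblasts (iMEF), as places where 1 stretch of open chromatin can serve 2 protein-coding genes. A divergent pair was defined as a protein-coding gene on the minus strand and a protein-coding gene on the plus strand to its right, with annotated 5′ ends at most 1 kb apart, on chromosomes 1 to 19 of GRCm38 (mm10). The rule found 735 pairs, formed by 1450 of the 20807 coding genes (6.97%). A member is an accessible site that overlaps the span between both 5′ ends, and 676 members were found among the 150083 sites of these chromosomes (0.450%) and the 153924 sites of the whole list. The rule used positions of genes and sites only. A site had to touch the span, but it needed neither to hold both 5′ ends nor to have any given width. Wide sites touch a span more often than narrow ones, so the rule favours them.

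The cells carry floxed Ash2l alleles and a Cre-ER recombinase driven by the CAGG promoter, and in all groups exon 4 of the endogenous Ash2l was excised with 4-hydroxytamoxifen, so that they live on a human ASH2L fused to a mutant FKBP12 and an HA tag (FKBP-HA2-ASH2L). The line is a single clone obtained by limiting dilution. ATAC-seq, in which the Tn5 transposase inserts adapters into open chromatin, was done in 10 libraries of 5 groups with 2 replicates each. The control cells had no dTAG-13 but ethanol, per the study's methods, and are labelled WT although they carry the same alleles. The other groups were cells given dTAG-13, harvested after 30 min or after 4, 8 or 24 h. dTAG-13 links the FKBP fusion to an E3 ubiquitin ligase, which leads to degradation of the fusion protein. The list of sites analysed here is 1 list for all libraries and holds a chromosome, a start and an end per site, with no signal, no library and no condition. The values below therefore describe where sites were called and how far they extended, and no depth, replicate error or effect of dTAG-13 can be given. Of 10 marker genes of fibroblasts 9 had their 5′ end inside a site (Col1a2 did not), against 3 of 6 epithelial markers (Cdh1, Cldn3 and Epcam), 1 of 4 endothelial markers (Kdr) and 0 of 5 blood cell markers, where 59.8% of all coding 5′ ends on chromosomes 1 to 19 were inside a site.

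RNA polymerase II promoters usually lie in a region free of nucleosomes, flanked by nucleosomes that carry H3K4me3 where the gene is active. ASH2L is a core subunit of the KMT2/COMPASS methyltransferases that deposit this mark. Many CpG island promoters also start short unstable transcripts on the opposite strand. At a divergent coding promoter both directions give a stable mRNA, and such arrangements are known to be frequent among housekeeping genes, DNA repair genes and genes for mitochondrial proteins.

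The sequence between the 5′ ends of textbook divergent pairs is shown first, because it is the whole stretch that separates both genes. Each run is the plus strand of the reference genome GRCm38.p6 from RefSeq, with 20 bp into either gene, and capitals mark matches on either strand to 1 of the 11 short motifs counted further below. The pair of Mrps12, a protein of the mitochondrial ribosome, and Sars2, the mitochondrial seryl-tRNA synthetase, lies at chr7:28741800-28742012. It held 1 ETS motif (ccggaag), 4 CCAAT boxes, the motif of NF-Y, and 1 GC box (gggcgg), the motif of SP and KLF factors. Hadha and Hadhb, both subunits of the mitochondrial trifunctional protein of fatty acid oxidation, flank chr5:30155142-30155268 with 3 GC boxes. Wrap53, a gene for a telomerase and Cajal body protein, and Trp53 flank chr11:69580235-69580379, with a CCAAT box and an E-box (cacgtg) beside Trp53. Col4a4 and Col4a3, chains of basement membrane collagen, flank chr1:82586829-82586941, where none of the 11 motifs matched.
Mrps12/Sars2: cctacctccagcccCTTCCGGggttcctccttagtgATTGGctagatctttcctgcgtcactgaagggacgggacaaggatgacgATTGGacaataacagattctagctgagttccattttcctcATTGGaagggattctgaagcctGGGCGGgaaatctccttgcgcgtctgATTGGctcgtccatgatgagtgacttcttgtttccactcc
Hadha/Hadhb: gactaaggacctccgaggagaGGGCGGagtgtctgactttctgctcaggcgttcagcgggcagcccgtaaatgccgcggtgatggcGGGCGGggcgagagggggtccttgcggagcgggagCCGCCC
Wrap53/Trp53: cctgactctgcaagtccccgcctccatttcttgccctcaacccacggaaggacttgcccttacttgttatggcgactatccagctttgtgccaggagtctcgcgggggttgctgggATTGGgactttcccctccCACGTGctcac
Col4a4/Col4a3: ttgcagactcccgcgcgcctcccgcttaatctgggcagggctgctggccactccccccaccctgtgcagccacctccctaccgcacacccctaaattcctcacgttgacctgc

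Nearly all divergent pairs had a site, and it was nearly always a single site that held both 5′ ends. A site overlapped the span in 695 of 735 pairs (94.6%, 95% Wilson interval 92.7 to 96.0). The single base at the 5′ end was inside a site for 59.8% of all coding genes and for 91.8% of those with a CpG island. An island was computed for 672 of the 735 pairs (91.4%). A span of up to 1 kb also meets a site more easily than 1 base does. In 676 pairs (92.0%, 89.8 to 93.7) 1 site contained the 5′ ends of both genes. In another 19 pairs a site was present but did not cover both, and 40 pairs had no site. Of those 19, the site held the minus-strand 5′ end alone in 11 pairs and the plus-strand 5′ end alone in 7. Fhod1/Slc9a5, whose 5′ ends lie 890 bp apart, was the only pair with 2 sites, one at each 5′ end. Some genes belong to more than 1 pair, and 20 members each overlapped more than 1 pair, so that the equal numbers of members and of pairs with a shared site are a coincidence.

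**Figure D1:**
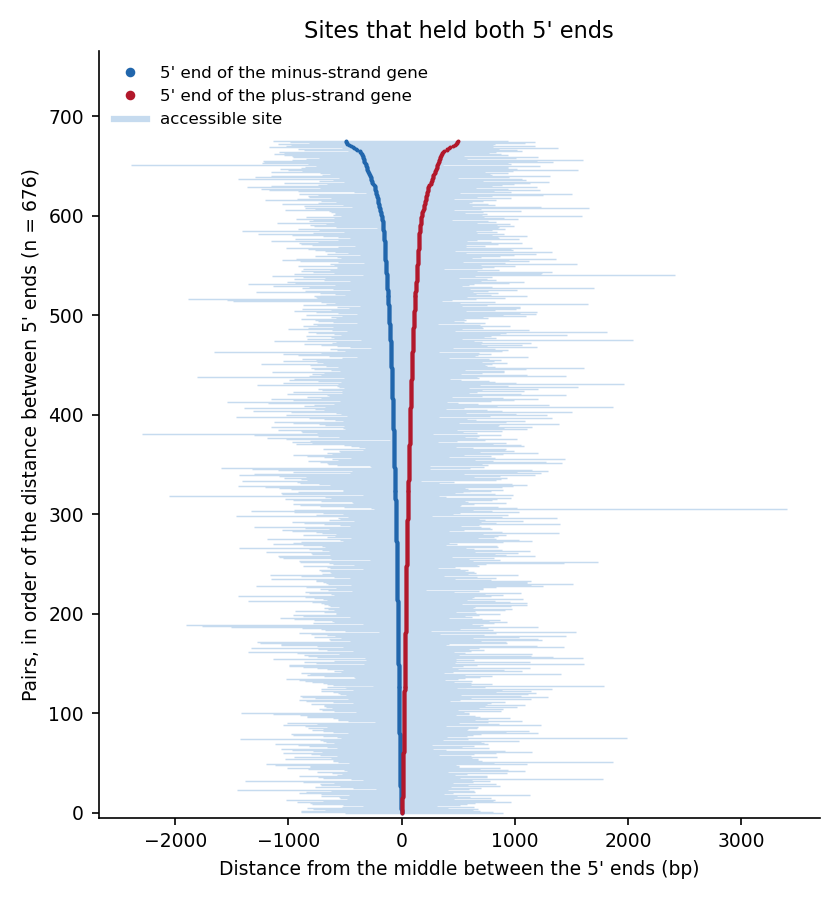
Each horizontal line is the accessible site of 1 of the 676 divergent pairs with both 5′ ends in the same site, placed by its distance in bp from the middle between the 5′ ends, with pairs in order of the distance between their 5′ ends from bottom to top. Blue and red dots mark the 5′ ends of the minus-strand and plus-strand genes. The sites extend past the 5′ ends on both sides, by a median of 650.5 bp into the minus-strand gene and 677 bp into the plus-strand gene.

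Of the textbook list of 23 divergent gene pairs, 10 met the rule. In each of the 10 a single site held both 5′ ends, beside 92.0% of all divergent pairs. Another 9, such as Hspd1/Hspe1 and Col4a1/Col4a2, were annotated with 5′ ends that overlap head to head, which the rule leaves out. All 9 also had both 5′ ends in the same site, beside 86.1% of all pairs overlapping head to head by up to 1 kb. The remaining 4 were arranged otherwise in the annotation. Among the 10, the 5′ ends of Mrps12 (ENSMUSG00000045948.8) and Sars2 (ENSMUSG00000070699.5) lie 172 bp apart on chromosome 7, and their site covered 1505 bp, reaching 650 bp into Mrps12 and 682 bp into Sars2. That of Hadha/Hadhb covered 1859 bp and reached 1002 bp into Hadha and 770 bp into Hadhb. Both of these sites were thus roughly centred on the pair. Wrap53/Trp53 was not, since its site of 1730 bp reached 1413 bp into Wrap53 and 212 bp into Trp53. Brca1/Nbr1, of the homologous recombination factor and an autophagy receptor, leaned the other way, with 363 bp in Brca1 and 1095 bp in Nbr1 of a site of 1653 bp. Atm/Npat, of the DNA damage kinase and a coactivator of histone genes, had a site of 1802 bp over 5′ ends 307 bp apart. Mcm4/Prkdc, of a replicative helicase subunit and the catalytic subunit of DNA-dependent protein kinase, had a site of 1374 bp over 466 bp, and Gart/Son, of purine synthesis and splicing, had 2465 bp over 554 bp. Psmb1/Tbp, of a proteasome subunit and the TATA-binding protein, had the narrowest of the 10, with 864 bp, and Col4a4/Col4a3 had 1236 bp.

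The 5′ ends of divergent genes were inside a site more often than those of coding genes without such a partner and the excess was smaller among promoters with a CpG island, a GC-rich stretch that most housekeeping genes have. So that the genes of a pair were not both counted, the plus-strand gene of each pair was used, each gene record once. A promoter with more than 1 plus-strand record, such as that of Arl16/Hgs, still entered more than once. The 5′ end of the plus-strand gene was inside a site in 677 of 728 genes (93.0%, 90.9 to 94.6), where 59.8% of all coding 5′ ends were. Among the 19357 coding genes without a divergent coding partner, 11083 (57.3%) had their 5′ end inside a site, a difference of 35.7 percentage points (95% Newcombe interval 33.5 to 37.5). The minus-strand genes gave 676 of 722 (93.6%). A computed CpG island lay within 500 bp of the 5′ end of 651 of the 728 divergent genes (89.4%) and of 50.8% of the unpartnered genes, which is 38.6 points more (36.1 to 40.7). Among genes with an island, where 91.8% of all coding 5′ ends were inside a site, the share was 96.9% for divergent genes (631 of 651) and 91% for unpartnered genes (8956 of 9838). That difference was 5.89 points (4.18 to 7.11). Without an island it was larger, since 46 of 77 divergent genes (59.7%) but 2127 of 9519 unpartnered genes (22.3%) were inside a site, a difference of 37.4 points (26.2 to 47.7). By pairs, 655 of 672 with an island (97.5%) and 40 of 63 without (63.5%) had a site. Wrap53/Trp53, Brca1/Nbr1 and Col4a4/Col4a3 were among the pairs with a site and no computed island.

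**Figure D2:**
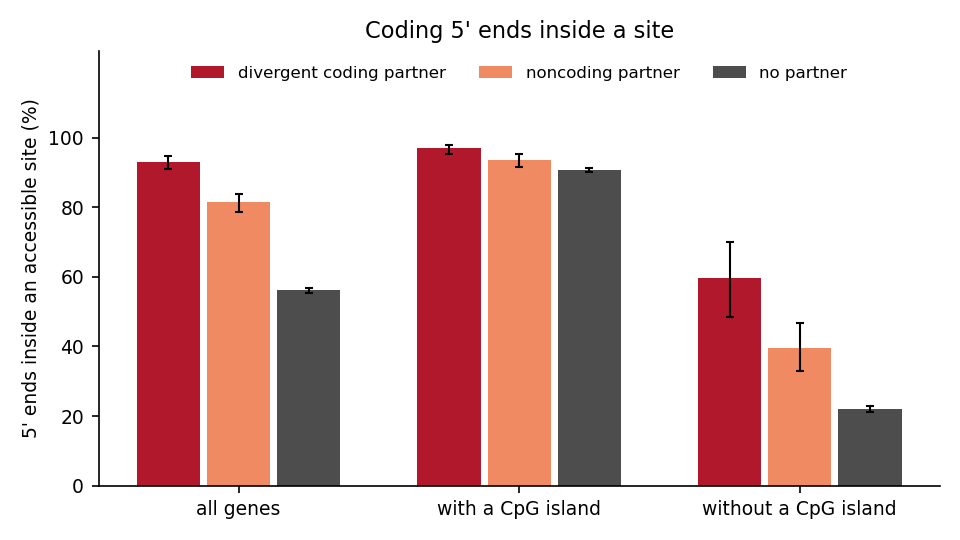
Bars give the percentage of coding 5′ ends inside an accessible site for genes with a divergent coding partner (plus-strand gene of each pair), a noncoding partner in the same arrangement, or no partner, for all genes and by presence of a CpG island within 500 bp, with 95% Wilson intervals. The order divergent, noncoding partner, no partner holds in each set, with 96.9%, 93.7% and 90.8% among island genes. A noncoding partner is any record not typed as protein-coding, and coding genes that overlap head to head were not taken out of the classes without a divergent coding partner.

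A partner that does not code for protein went with intermediate values. Noncoding here means any gene record not typed as protein-coding. Of the unpartnered coding genes, 860 had such a record in the divergent arrangement, and the 5′ end was inside a site in 701 of them (81.5%). For those with no partner of either kind it was 10382 of 18497 (56.1%), a difference of 25.4 points (22.6 to 27.9). Genes that overlap another coding gene head to head were not taken out of these classes. Divergent coding pairs were above the genes with a noncoding partner by 11.5 points (8.26 to 14.7) over all genes and by 3.23 points (0.948 to 5.6) among island genes. An island was present for 77.4% of the genes with a noncoding partner and for 49.6% of those with none. Among island genes, those with a noncoding partner were above those with none by 2.85 points (0.667 to 4.57).

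Members were wide compared with the list as a whole, but only a little wider than the sites of other island promoters. Their median width was 1543.5 bp (1516 to 1586), with quartiles of 1315.75 and 1843 bp and a range from 375 to 3649 bp. The median of all sites on these chromosomes was 620 bp. Since the rule favours wide sites, this comparison with all sites is only a description. Among all members, with or without an island, those of 1 kb or more made up 94.8%. At unpartnered island promoters they were 90.5% of the sites. Those of 2 kb or more made up 14.9% against 16.2%. At island promoters the median width was 1564.5 bp for divergent genes (n = 618 sites) and 1480 bp for unpartnered genes (n = 8489 sites), a difference of 84.5 bp (Price-Bonett interval 45.1 to 124). Against promoters with a noncoding partner, at 1549 bp, the difference was 15.5 bp, with an interval from -41.8 to 72.8 bp that includes 0.

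What differed more was how the site lay around the 5′ end. At unpartnered island promoters the site reached a median of 533 bp upstream and 893 bp downstream, into the gene, and within a site the downstream part was longer by a median of 343 bp (330 to 357). At divergent promoters it reached 808 bp upstream, 275 bp more (245 to 305), and 700 bp downstream, 193 bp less (162 to 224). In a shared site the upstream reach contains the distance between the 5′ ends, which is part of the rule. With that distance limited to 300 bp the upstream excess was 237 bp (207 to 267). Next, reach was counted from each gene's own 5′ end outward, over all shared sites with or without an island. A shared site reached 650.5 bp into the minus-strand gene (629 to 668) and 677 bp into the plus-strand gene (649 to 700). Each was more than the upstream and less than the downstream reach at unpartnered island promoters. The reach into the plus-strand gene exceeded that into the minus-strand gene within the same site by a median of 49.5 bp (7 to 85), and the site lay towards the plus-strand gene in 372 of 676 pairs (55.0%, 51.3 to 58.7). In 660 pairs (97.6%) the site extended 200 bp or more into both genes. Its middle fell between the 5′ ends in 216 pairs (32%) and lay a median of 133.75 bp from the middle of the span. Promoters with a noncoding partner were intermediate, with 659.5 bp upstream and 850.5 bp downstream. Against these, divergent sites reached 148.5 bp further upstream (111 to 186) and 150.5 bp less far downstream (105 to 196).

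**Figure D3:**
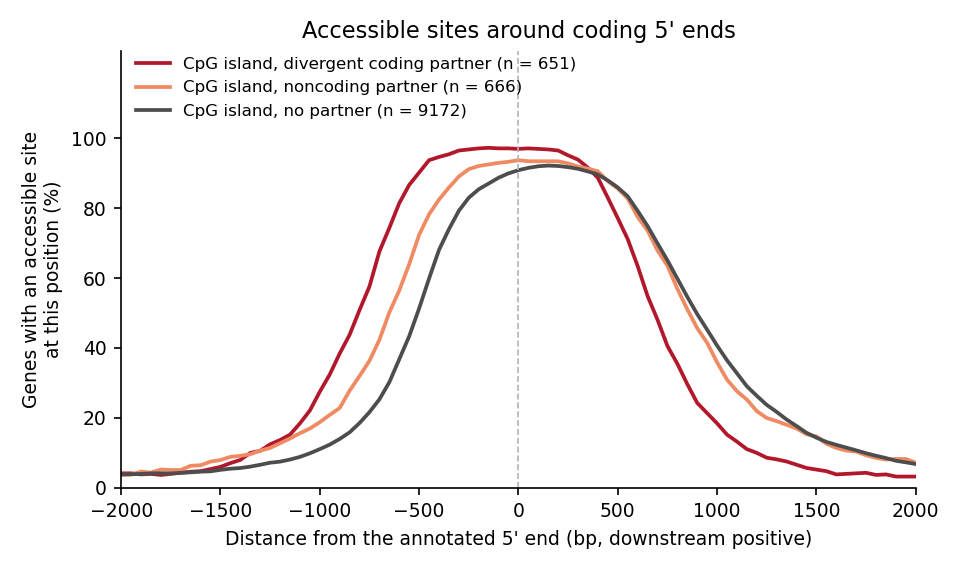
Lines give the percentage of genes whose position at a given distance from the annotated 5′ end, in bp with downstream positive, was covered by an accessible site, for island promoters with a divergent coding partner, a noncoding partner or no partner. At 500 bp upstream 90.2%, 72.4% and 51.3% were covered, and at 500 bp downstream 77.1%, 85.6% and 85.9%, so the divergent line is shifted upstream. Classes are those of the bar chart of coding 5′ ends.

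The shared site was widest in the pairs with the largest spacing between 5′ ends, where a single site covered both less often than in closer pairs. The median distance over all pairs was 128 bp (114 to 139), with quartiles of 66 and 240 bp. With 5′ ends 0 to 100 bp apart (307 pairs) the shared site had a median of 1486.5 bp and held both 5′ ends in 95.8% of pairs. Over 100 and up to 200 bp (200 pairs) it was 1578 bp and 91.5%, over 200 and up to 300 bp (96 pairs) 1574 bp and 95.8%, and over 300 and up to 500 bp (64 pairs) 1576 bp and 98.4%. Over 500 bp and up to 1 kb (68 pairs) the median was 1910.5 bp, while a single site held both 5′ ends in 64.7% (52.8 to 75) although 89.7% had a site. The reach into either gene went from 679 and 676.5 bp in the closest pairs to 582 and 636.5 bp in the widest, for the minus-strand and plus-strand gene. Over the 676 pairs with a shared site the Spearman correlation of distance with width was 0.231, with reach into the minus-strand gene -0.175 and with reach into the plus-strand gene -0.0459, given as a description, since width contains the distance. Just inside the limit of 1 kb, Zfyve26/Rad51b (978 bp) and Btf3l4/Txndc12 (987 bp) each had 1 site over both 5′ ends, of 2164 and 2083 bp, and Asphd1/Sez6l2 (981 bp) had a site over one. Just outside it, Sgsm2/Tsr1 (1011 bp) and Dirc2/Hspbap1 (1019 bp) had both 5′ ends in the same site and Gpr108/Trip10 (1009 bp) in different sites. Beyond 1 kb and up to 2 kb, a single site held both 5′ ends in 20 of 104 pairs (19.2%).

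**Figure D4:**
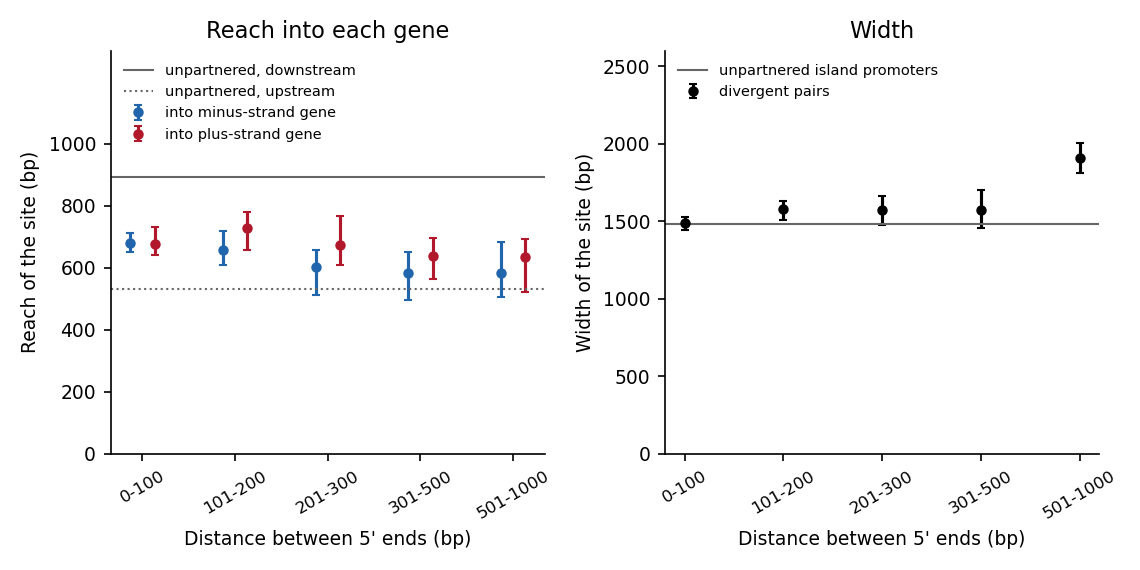
Left, median reach of the shared site in bp into the minus-strand gene (blue) and the plus-strand gene (red) by class of distance between the 5′ ends, with the medians of unpartnered island promoters as lines (893 bp downstream, 533 bp upstream). Right, median site width in bp, with 1480 bp for unpartnered island promoters as a line. Bars are 95% intervals of the median, and the class above 500 bp stands above the others at 1910.5 bp. Shared sites were taken with or without an island.

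The extremes of width were held by pairs of different kinds. The widest member, 3649 bp at Polr2l/Tspan4, of an RNA polymerase subunit and a tetraspanin, reached 192 bp into Polr2l and 3348 bp into Tspan4. Cd3eap/Ppp1r13l followed with 2760 bp, of which 2282 bp lay in Ppp1r13l, and Ankrd17/Gm9958 with 2756 bp, of which 2073 bp lay in Ankrd17. All 3 extended mainly into one gene. The narrowest members were at Pecam1/Milr1 (375 bp), where the site held the 5′ end of Milr1 and not that of Pecam1, the endothelial CD31, at Ifit1bl2/Ifit1 (530 bp), a pair of interferon-induced genes, and at Klc3/Ckm (648 bp), where it held the 5′ end of Klc3 and not that of Ckm, the muscle creatine kinase. In the closest pair, Nsa2/Gfm2, both 5′ ends are at the same base, and in Bag4/Lsm1 they are 1 bp apart; their sites covered 1398 and 1581 bp.

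Divergent pairs held a larger part of some gene groups than of others, which is a property of the annotation. Their shares of pairs with a site are read against the 94.6% of all divergent pairs. Shares of pairs with a single site over both 5′ ends are read against 92.0%. No list was tested against either value. Where 6.97% of all coding genes belonged to a pair, 22 of 82 genes of DNA repair and replication did (26.8%), in 22 pairs of which 21 had a site. Besides the textbook pairs these included Rpa1/Smyd4, with the large subunit of the single-stranded DNA binding protein RPA and a site of 1024 bp, and Brix1/Rad1, with a subunit of the 9-1-1 checkpoint clamp and 1454 bp. In Abhd12/Gins1 the site of 1398 bp did not include the 5′ end of Gins1, a subunit of the replicative helicase. The pair of this list without a site was Pinlyp/Xrcc1, with a scaffold of single-strand break repair, where the nearest site lay 178 bp away. All 18 genes of the mitochondrial ribosome found in pairs (of 78, 23.1%) had a single site over both 5′ ends, with widths from 951 to 2434 bp and a median of 1396.5 bp. Mrpl54/Apba3, 26 bp apart, had a site of 1151 bp, Mitd1/Mrpl30 one of 1141 bp, Lrrc46/Mrpl10 one of 1156 bp and Mrpl32/Psma2, with a proteasome subunit as partner, one of 1240 bp. Of the 35 genes of respiratory complex I, 8 were in pairs (22.9%). All 8 pairs had a site, and in 7 of them a single site held both 5′ ends. Fam126b/Ndufb3 had a site of 1484 bp, Tatdn1/Ndufb9 one of 1363 bp and Wdr4/Ndufv3 one of 1551 bp. Rps28/Ndufa7 joins a protein of the cytosolic ribosome to a complex I subunit, 10 bp apart, in a site of 653 bp. In Ndufa5/Asb15 the site of 1049 bp held the 5′ end of Ndufa5 and not that of Asb15.

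Genes of translation outside the mitochondrion showed smaller numbers. Of 36 aminoacyl-tRNA synthetase genes, 5 were in pairs (13.9%), all with a single site over both 5′ ends; Orc3/Rars2, which joins an origin recognition subunit to a synthetase, had 1849 bp, S100pbp/Yars 1879 bp and Kars/Terf2ip 1767 bp. Of 73 genes of cytosolic ribosomal proteins, 9 were in pairs (12.3%) and 8 of these 9 pairs had a site, such as Rpl36al/Mgat2 with 1757 bp and Polr3a/Rps24 with 760 bp. Rnf151/Rps2 had none, with the nearest site 1358 bp away. Replication-dependent histone genes had the highest share, 27 of 67 (40.3%), and 11 of their 14 pairs had a site. In the 10 pairs of histone genes on both sides with a shared site, which join mostly an H2A to an H2B gene, its width ranged from 950 to 2585 bp with a median of 1970.5 bp; Hist1h2ak/Hist1h2bn had 1751 bp. Histone genes are near-identical copies, so that the assignment of reads among them is uncertain. Zinc finger protein genes were in pairs about as often as coding genes as a whole, 20 of 385 (5.19%, 3.39 to 7.89), with a site in 16 of 18 pairs, such as Zfp142/Bcs1l (1387 bp) and Zfp277/Dock4 (2043 bp). No member of the 1128 olfactory receptor genes or the 53 keratin genes was in a pair. None of the 17 genes of H3K4 methyltransferase complexes was in a pair either, and 14 of these 17 (82.4%) had their 5′ end inside a site, beside 59.8% of all coding genes and 91.8% of those with an island.

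The sequence of divergent island promoters with a site differed from that of unpartnered ones in a few short motifs. Each window ran from 250 bp before to 50 bp after the 5′ end and was searched on both strands for exact matches. The ETS motif (ccggaag) was found in 28.7% of the 631 divergent windows and in 16.7% of the 8956 unpartnered ones, 12 points more (8.49 to 15.7). The YY1 motif (aagatggc) was in 9.35% against 3.86%, 5.49 points more (3.41 to 8.04). The CCAAT box was in 43.1% against 37.0%, 6.14 points more (2.20 to 10.2), and a ZBTB33-type motif (ctcgcgag) in 3.65% against 2.07%, 1.58 points more (0.335 to 3.37). Fewer divergent windows held the TATA box (tataaa), 3.49% against 6.55%, or the EGR motif (gcgggggcg), 3.8% against 6.81%, with differences of -3.07 points (-4.36 to -1.26) and -3.01 points (-4.36 to -1.14). Of these 6 motifs, only ETS and YY1 kept an interval that excluded 0 under every alternative run. In 200 bp around the middle of the site the TATA box, EGR and ZBTB33-type differences were -0.16, -1.38 and 0.77 points with intervals that included 0, and with head-to-head overlapping pairs included the CCAAT difference was 2.13 points (-1.04 to 5.37). For the GC box (gggcgg, 72.9% against 69.7%), the E-box (cacgtg, 11.7% against 10.6%), the NRF1 core (gcatgcgc, 6.97% against 5.73%), the CRE (tgacgtca, 4.75% against 3.58%) and the AP-1 motif (tgantca, 2.85% against 3.84%) the interval of the difference included 0. The GC box motif gggcgg overlaps the EGR motif in part of their letters, so these matches are not independent. Among all 20807 coding genes the shares were 11% for the ETS motif, 2.93% for YY1, 38.6% for the CCAAT box, 1.22% for the ZBTB33-type motif, 12.7% for the TATA box, 3.67% for EGR, 43.7% for the GC box, 7.82% for the E-box, 3.45% for the NRF1 core, 2.43% for the CRE and 6.88% for AP-1. A divergent window overlaps the partner's window, set in the same way, where the 5′ ends are closer than 500 bp. Below 250 bp it also contains the partner's 5′ end. Such a window can hold motifs of either gene.

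The place and strand of matches are given as a description, with no test. At unpartnered promoters the matches of the YY1 motif had a median position 6 bp downstream of the 5′ end and 67.9% lay on the gene's own strand (243 of 358 matches). In divergent windows the median position was 71 bp upstream and 45.2% lay on the strand of the plus-strand gene (28 of 62 matches). For the TATA box 60.2% of unpartnered matches (391 of 650) and 43.5% of divergent matches (10 of 23) lay on the gene's strand, and for the ETS motif 51.8% and 48.7%.

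**Figure D5:**
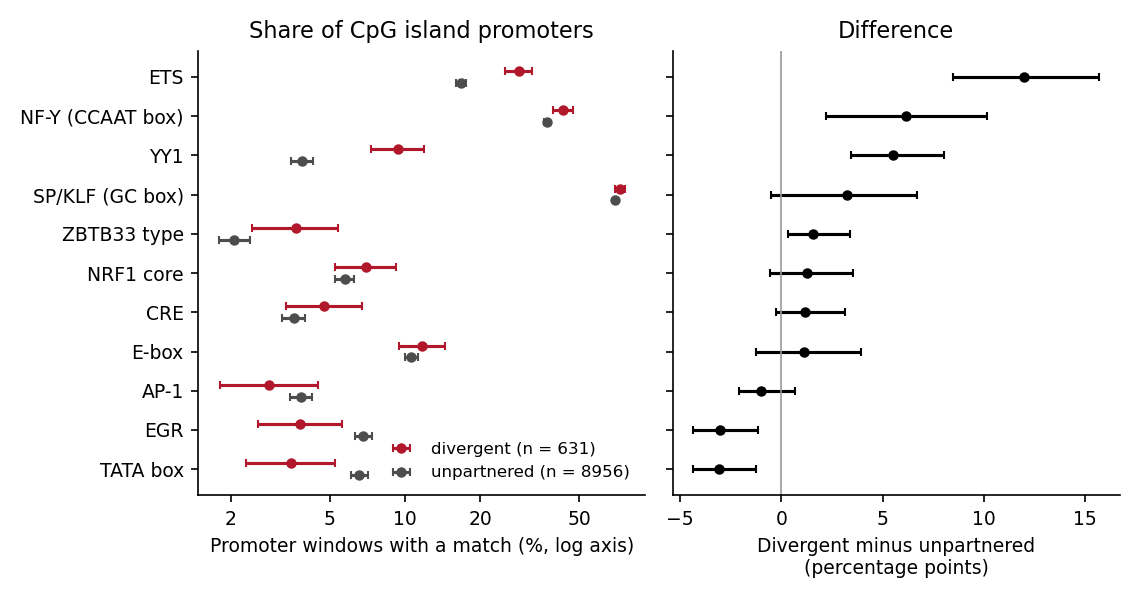
Left, percentage of 300 bp promoter windows with at least 1 match on either strand, on a log axis, for 631 divergent and 8956 unpartnered CpG island promoters with a site, with 95% Wilson intervals. Right, the difference in percentage points with its 95% interval; ETS, NF-Y, YY1 and ZBTB33-type intervals lie above 0, EGR and TATA box below, and the other 5 include 0, while only ETS and YY1 kept such an interval under every alternative run.

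In base composition all members, with or without an island, were close to the sites of unpartnered island promoters. The median GC content was 57.7% (57.3 to 58.3) against 59.0% (58.8 to 59.1). The median number of CpG dinucleotides per 100 bp was 5.94 against 6.15, and the ratio of observed to expected CpG 0.730 against 0.720. Unpartnered sites with or without an island (n = 10550) had medians of 57.8%, 5.58 and 0.683. The gap to the next site was wider around all members, with a median of 6077.5 bp (5721 to 6474). For the sites of unpartnered island promoters it was 5044 bp (4937 to 5149). By chromosome, the share of pairs with a site ranged from 84.2% on chromosome 13, where 3 of the 6 pairs without a site are histone pairs, to 100% on chromosomes 5 and 12.

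The 40 pairs without a site fell into different situations. An island was computed for 17 of them and for 23 it was not. The nearest site lay a median of 2694 bp away, within 1 kb in 10 pairs and beyond 5 kb in 18. In text order of chromosome names, in which chromosome 10 follows chromosome 1, the first 5 island pairs with names for both genes were Pcmt1/Lats1, with a Hippo pathway kinase, Aspa/Spata22, Hist1h2bq/Hist1h2ao, Hist1h2ap/Hist1h2br and Bhmt2/Dmgdh, with enzymes of methyl group metabolism expressed mainly in liver. Their nearest sites were 99053, 1971, 1263, 1208 and 43948 bp away. In 8 of the 17 island pairs, singled out after their values were seen, the list held no site at all over a stretch of 100 kb or more that contained the pair. Some pairs lay nearer to an edge, with the nearest site 721 bp from Peg3/Usp29 and 17524 bp from Zcchc17/Snrnp40. These stretches ranged from 188.548 kb at Peg3/Usp29, an imprinted locus, to 1017.436 kb around Nfya/Oard1, where Nfya codes for a subunit of NF-Y. That of Tango2/Arvcf, 505.613 kb long, contained the 5′ ends of 13 coding genes, 9 of them with an island, and that of Tbc1d10c/Ppp1ca, with a catalytic subunit of protein phosphatase 1, 247.813 kb long, those of 19 coding genes, 10 with an island. The others were at Slc25a32/Dcaf13 (589.778 kb), Pcmt1/Lats1 (446.312 kb), Mfsd8/Abhd18 (444.176 kb) and Zcchc17/Snrnp40 (412.607 kb). Of the unpartnered island genes without a site, 230 of 882 (26.1%) also lay in such stretches. What is reported there is absence from the list, and its cause, such as closed chromatin, was not tested. Without pairs in such stretches 95.6% of pairs (93.9 to 96.9) had a site.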

How the data were processed

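ATAC-seq reads of 10 libraries were trimmed with Trim Galore and aligned with BWA to mm10, filtered with SAMtools, merged over replicates with Picard, and peaks were called with MACS2 by the authors, per the labels and the study's methods, which also name DESeq2 and deepTools. Versions, the threshold, Tn5 shifts, a blacklist and how peaks of the groups were joined are not given in the sources used here. The deposited list holds positions only (0-based starts, printed from 1). Genes were gene records of GENCODE vM21 on GRCm38, and the 5′ end is the outermost base of the record. An island is a stretch of at least 200 bp outside masked repeats with GC above 0.5 and an observed to expected CpG ratio above 0.6. Shares have Wilson, differences of shares Newcombe, medians order-statistic and differences of medians Price-Bonett 95% intervals. They treat genes as independent and cover counting error only, and no p-value was computed. Scripts used Python 3.11.15, NumPy 2.4.6, pandas 2.3.3, SciPy 1.17.1 and Numba 0.67.0 and were tested on simulated sites and motifs. Named pairs were textbook pairs, extremes of width and distance, the first island pairs without a site by position (chromosome names in text order) and up to 4 pairs per gene list. Members, lists and motifs were chosen with earlier results of these data known. The closing section gives the other settings, of which those on site-free stretches and on head-to-head overlaps were chosen after seeing the data. A few pairs of these lists are not reported here.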

Additional observations from a re-analysis of the deposited data

Results flagged for a closer look

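Chromosome X was outside the rule, which is limited to chromosomes 1 to 19. It held 20 divergent coding pairs, and a site overlapped the span in 15 of them (75%, 53.1 to 88.8), with 15 sites in all. It is listed because the comparisons above did not use these data. Any count of sites above 0 would have led to this listing, which is therefore no test result. The interval lies below the 94.6% of the other chromosomes, and the difference was not tested.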

How the results depend on the processing

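Apart from the motifs, the direction of each difference and its side of 0 were kept under all alternatives run for it: other distance limits, head-to-head overlaps included, gene models without names or histone genes left out, wide or merged sites, positions counted from 1, chromosomes 10 and 15 left out, RefSeq gene records, the minus-strand gene, and wider windows for sites and islands. The excess of divergent 5′ ends inside a site ranged from 28.1 points, without genes in stretches of 100 kb or more without any site, to 38.1 points, and from 3.62 points, where a site within 200 bp was enough, to 7.41 points among island genes; the excess of islands from 36.4 to 41.4 points, that of upstream reach from 202 to 338.5 bp and that of width from 63.0 bp to 132 bp, the latter over all promoters with or without an island. The deficit of downstream reach ranged from -238 bp to -116.5 bp, the latter with head-to-head overlaps included. Over all unpartnered genes, with or without an island, the difference between those with and without a noncoding partner ranged from 24.2 to 28.5 points. Pairs with a site ranged from 93.5% to 95.6%. The share of pairs with 1 site over both 5′ ends moved beyond its interval in 3 settings, to 94.8% with a limit of 500 bp, 94.4% with 300 bp and 89.7% with head-to-head overlaps included. The number of motifs whose interval excluded 0 ranged from 4 to 8. In a window of 200 bp around the middle of the site the TATA box, ZBTB33-type and EGR differences included 0, at -0.16, 0.77 and -1.38 points, and so did the ZBTB33-type difference without chromosomes 10 and 15, at 1.12 points, and the CCAAT difference with head-to-head overlaps, at 2.13 points. Intervals came to exclude 0 for the GC box with a limit of 300 bp (4.19 points), without chromosomes 10 and 15 (3.91) and with RefSeq records (4.52), for the CRE with a limit of 300 bp (2.10), the minus-strand gene (1.62) and the middle of the site (1.63), and for AP-1 with RefSeq records (-1.92). The cause was not tested. Depth is unknown. No paired analysis was possible because only positions pooled over all libraries were given. The annotated 5′ end need not be the start site used in these cells, and without signal per library no site can be ranked by strength.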

Other observations

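Coding genes that overlap head to head, with 5′ ends up to 1 kb inside each other, formed 445 further pairs, and 383 of these (86.1%, 82.5 to 89.0) had both 5′ ends in the same site. In the comparisons above these genes counted as unpartnered. Without them, the excess of divergent 5′ ends inside a site was 37.3 points over all genes and 6.12 points among island genes.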
